A study of Mus musculus with 5 samples.

Results

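The genes described here are 10 direct transcriptional targets of p53 (Cdkn1a, Mdm2, Ccng1, Trp53inp1, Bax, Pmaip1, Phlda3, Zmat3, Gdf15 and Perp) in mouse NT2.5 mammary tumour cells and in sub-lines of those cells that favour bone or liver as a metastatic site. The members were chosen by symbol, and every probe set annotated to a member was taken. The platform annotation used here named 14 probe sets for 8 of the 10 genes, out of 45101 probe sets in all. Bax and Gdf15 had no named probe set and were not analysed here. Of the 8 measured genes, 7 passed the filter on low values and were tested among 12609 genes.

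NT2.5 cells come from a mammary tumour of a mouse with a transgene for rat neu, the Erbb2 receptor of that species. Total RNA was hybridised to 5 one-colour Affymetrix mouse arrays, 1 each for the bone sub-line at passage 6 (final) and passage 3 (early), the liver sub-line at passage 3 (final) and passage 1 (early), and the parental cells, which are labelled wild type and metastasise to bone, liver and lung. No drug or DNA-damaging treatment is named for any group, and each sub-line is 1 lineage measured at successive passages. The 2 passages of a sub-line therefore stood in for replicates, and the parental group had 1 array.

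p53 is a transcription factor that is stabilised after DNA damage, oncogene activity and other stress. It switches on genes that halt the cell cycle, above all Cdkn1a, genes that promote cell death, such as Bax and Pmaip1, and its own antagonist Mdm2, a ubiquitin ligase that marks p53 for degradation. In mammary tumours this network limits the growth of cells with damaged genomes, and the levels of its targets are often read as a sign of how active p53 is, although most of them also answer to other factors.

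p53 binds pairs of a short element known as the p53 decamer half-site. The windows from 250 bases before to 50 bases after an annotated transcription start were searched for it (RefSeq, GRCm38.p6, 8 windows for 6 of the 10 genes). The element reads the same on both strands, so 1 search covers both. It was present in 8.36% of 32851 such windows of all genes, and 2 half-sites with a spacer of 0 to 13 bases were present in 0.0731%. The windows of the best-known arrest and feedback targets that held a match are shown in lower case with the half-sites in capitals, so that the element can be seen beside the expression values.

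Cdkn1a, upstream start, chr17:29090729-29091028, plus strand: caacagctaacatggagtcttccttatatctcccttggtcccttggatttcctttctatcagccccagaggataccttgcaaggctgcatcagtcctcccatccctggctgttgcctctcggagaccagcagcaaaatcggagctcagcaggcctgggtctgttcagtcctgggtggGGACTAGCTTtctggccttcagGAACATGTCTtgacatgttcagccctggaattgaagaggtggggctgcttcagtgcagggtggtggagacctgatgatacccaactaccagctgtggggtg

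Ccng1, chr11:40755237-40755536, minus strand: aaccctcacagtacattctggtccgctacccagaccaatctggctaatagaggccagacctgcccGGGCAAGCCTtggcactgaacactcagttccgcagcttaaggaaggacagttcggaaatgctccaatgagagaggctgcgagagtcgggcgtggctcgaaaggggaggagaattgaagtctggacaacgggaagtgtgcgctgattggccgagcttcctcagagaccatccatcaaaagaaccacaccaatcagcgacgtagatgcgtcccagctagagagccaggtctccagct

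Mdm2, chr10:117710709-117711008, minus strand: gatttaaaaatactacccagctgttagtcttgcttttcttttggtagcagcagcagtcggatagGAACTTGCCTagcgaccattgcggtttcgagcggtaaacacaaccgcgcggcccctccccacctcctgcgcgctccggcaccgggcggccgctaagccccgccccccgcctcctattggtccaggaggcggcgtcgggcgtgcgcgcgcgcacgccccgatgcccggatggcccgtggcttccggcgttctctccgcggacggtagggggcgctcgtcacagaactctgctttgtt

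The Cdkn1a window held 2 half-sites, which begin 73 and 51 bases before the start and are 12 bases apart. Only exact matches were marked. The bases directly after the half-site at 51 differ from the element in their first letter alone and were left unmarked. The marked pair therefore need not be the pair that p53 binds. A second annotated Cdkn1a start lies 2790 bases downstream, and its window held 0. The Ccng1 window held 1 half-site, 185 bases before the start, and the Mdm2 window held 1, 186 bases before it. Bax, which was not measured here, also had 1. The windows of Phlda3 and Gdf15 held 0, and 4 members had no window that was searched. A match is a string of letters only, and the arrays do not tell which start was used.

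All values are linear intensities per probe set, and their trimmed mean (the outer 2% left out on either side) was 150 on all 5 arrays. The medians of all probe sets were 21.9 and 26.4 for bone passages 6 and 3, 26.2 and 24.6 for liver passages 3 and 1, and 26.1 for parental cells. Of 6 mammary epithelial markers, 5 were above the filter on every line, with Krt18, Krt8, Epcam and Cdh1 between 3281.5 and 7880.4 and Erbb2 between 211.8 and 342.1, whereas Krt19 stayed at or below 3.3. Summed over 11 macrophage markers, the intensity was 290.8 and 323.1 at bone passages 6 and 3, 549.8 and 774.1 at liver passages 3 and 1, and 232.7 in parental cells. None of these 11 was at 0 on an array, though C1qa lay between 0.9 and 1.2 outside liver passage 1, where it was 56.1. Csf1r, Cd68, Fcgr3, Lyz2, Cd163 and Mrc1 were higher on both liver arrays than on the remaining 3. Cd163 and Mrc1 were below the filter on every array. Ptprc (6.1) and Adgre1 (27.6) had their lowest value at liver passage 3. Itgam, C1qa and C1qb were not higher on both liver arrays. Csf1r had 107.3 and 89.3 at bone passages 6 and 3, 220 and 168.7 at liver passages 3 and 1, and 67.6 in parental cells. Cd68 had 74.8 and 103.2 in bone, 172 and 173.1 in liver, and 52.1 in parental cells, and Fcgr3 had 1.1 and 1.3 in bone, 19.7 and 30.4 in liver, and 2.4 in parental cells. The fibroblast marker Postn had 56.7 and 131.4 in bone, 223.8 and 198 in liver, and 82 in parental cells. Of 4 tested fibroblast markers, Postn was the only one with a positive liver minus parental difference, and 3 were negative. Bone minus liver was negative for 3 of the 4 and positive for 1. Limma called none of Csf1r, Cd68, Fcgr3 and Postn in any comparison. In liver minus parental the limma adjusted p was 0.249 for Csf1r, 0.206 for Cd68 and 0.590 for Postn. In bone minus liver it was 0.103 for Fcgr3. Fcgr3 passed the filter through liver passage 1 alone (30.4) and was below it on every other array. Its bone minus liver comparison therefore rests mostly on values below the filter, and no fold is given. The part of these markers in the results was not tested. Of 6 hepatocyte markers measured, 0 passed the filter, and their sum was between 36.8 and 66.7 on the 5 arrays.

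Among the arrest genes, Cdkn1a was lowest in parental cells and higher on all 4 sub-line arrays. It encodes p21, the inhibitor of cyclin-dependent kinases through which p53 stops the cell cycle. Its intensity was 725.6 and 1033.9 at bone passages 6 and 3, 1212 and 695.9 at liver passages 3 and 1, and 518.1 in parental cells. Thus both sub-lines were above the parental array, and the bone and liver arrays overlapped each other, with the final liver and the early bone passage at the top. In bulk RNA such as this, a different share of cells with a transcript and a different amount of it per cell cannot be told apart.

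The log2 difference of Cdkn1a was 0.72 ± 0.39 for bone minus parental (SE, 2 arrays against 1, 1.65-fold, limma adjusted p = 0.713) and 0.81 ± 0.39 for liver minus parental (1.75-fold, adjusted p = 0.715). Neither passed the threshold of 0.05, and only 7.61% and 5.19% of the genes tested had a larger difference in either direction. With bone passage 3 left out, bone minus parental came to 0.47. With liver passage 3 left out, liver minus parental came to 0.41, and with passage 1 left out in its place, to 1.20. A second, dimmer Cdkn1a probe set had 69.1 and 94.9 at bone passages 6 and 3, 91.8 and 63.7 at liver passages 3 and 1, and 32 in parental cells. It gave 1.02 for bone minus parental and 0.95 for liver minus parental on the same log2 scale, so both probe sets placed parental cells lowest. Both contrasts use the same parental array.

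Ccng1 encodes cyclin G1, which brings a phosphatase to Mdm2 and is among the most regularly induced p53 targets in mouse tissue. It had 2448 and 2450.2 at bone passages 6 and 3, 3370.9 and 1990.9 at liver passages 3 and 1, and 2118.8 in parental cells. The bone passages were nearly equal, while the liver passages lay on either side of the parental value. All 3 Ccng1 probe sets had their highest value on liver passage 3 and their lowest on liver passage 1. The log2 difference was 0.21 ± 0.34 for bone minus parental (limma adjusted p = 0.942) and 0.29 ± 0.34 for liver minus parental (adjusted p = 0.895). The liver value was -0.09 without the liver passage 3 array.

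**Figure D1:**
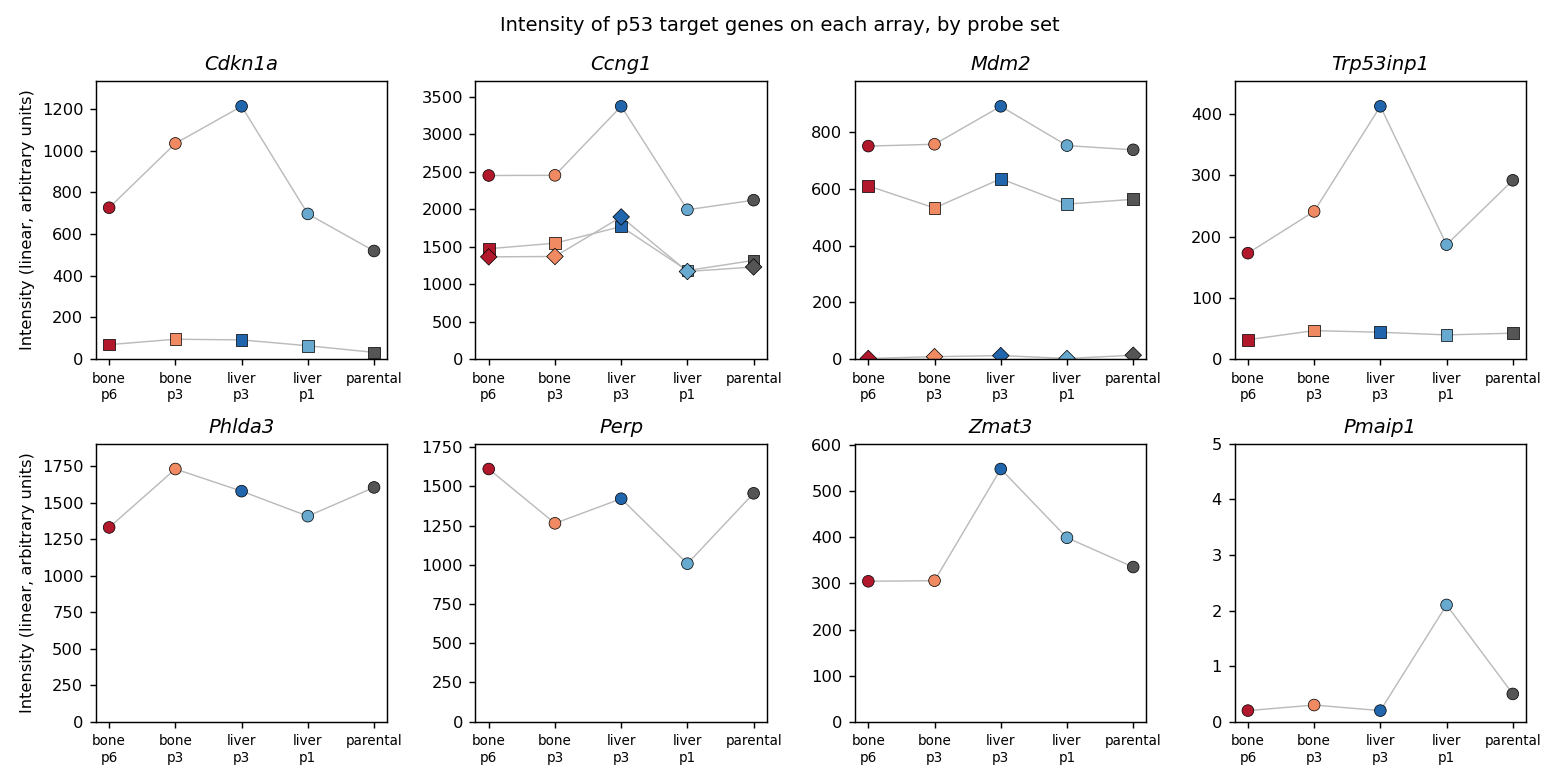
Linear intensity (arbitrary units, axes from 0) of every probe set of the 8 measured p53 target genes on each of the 5 arrays. Circles are the probe set used for the gene, squares and diamonds its other probe sets, and lines only join the points of 1 probe set. Among the circles, Cdkn1a is lowest in parental cells at 518.1, and Ccng1, Mdm2, Trp53inp1 and Zmat3 peak at liver passage 3. Some of the other probe sets peak elsewhere.

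The feedback gene Mdm2 was the flattest member. It had 751.2 and 757.7 at bone passages 6 and 3, 891.6 and 753 at liver passages 3 and 1, and 738.1 in parental cells. All arrays but liver passage 3 lay close together, and 91.7% of the genes tested had a wider range over the 5 arrays. The log2 difference was 0.03 for bone minus parental (95% confidence interval -0.53 to 0.59, limma adjusted p = 0.990) and 0.15 for liver minus parental (-0.41 to 0.70, adjusted p = 0.927), so changes within these intervals could not be detected. A second probe set was also highest on liver passage 3, at 635.9, and the dimmest probe set never exceeded 13.5, below the filter at 25.1.

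Of the genes tied to cell death, Trp53inp1 varied most. It encodes a stress-induced nuclear protein that promotes p53-dependent death and takes part in autophagy. Its intensity was 172.8 and 241 at bone passages 6 and 3, 412.6 and 186.7 at liver passages 3 and 1, and 291.8 in parental cells. Both bone passages and the first liver passage were below parental cells, and the final liver passage was above them. The log2 difference was -0.48 ± 0.46 for bone minus parental (limma adjusted p = 0.880) and -0.06 ± 0.46 for liver minus parental (adjusted p = 0.993). The liver value was 0.48 without liver passage 1, so its sign rested on which passage was used. A dimmer probe set stayed between 31.5 and 46.4 and was highest on bone passage 3.

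Pmaip1, which encodes the BH3-only protein Noxa, was at background. Its only probe set had 0.2 and 0.3 at bone passages 6 and 3, 0.2 and 2.1 at liver passages 3 and 1, and 0.5 in parental cells. All 5 values were far below the filter, and no fold is given.

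Phlda3, a pleckstrin-homology protein that restrains the kinase Akt, and Perp, a membrane protein of desmosomes that takes part in p53-dependent death and is also a p63 target, had bone and liver arrays that overlapped. Phlda3 had 1330.2 and 1730.2 at bone passages 6 and 3, 1578.5 and 1407.4 at liver passages 3 and 1, and 1604.2 in parental cells. The bone passages thus spanned the values of all other arrays. Perp had 1610.3 and 1264.2 at bone passages 6 and 3, 1420.9 and 1007 at liver passages 3 and 1, and 1455.5 in parental cells. The liver arrays were both below the parental array, with a log2 difference of -0.28 ± 0.30 (limma adjusted p = 0.882), which was -0.03 without liver passage 1.

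Zmat3 was the member that differed most between the sub-lines. It encodes a zinc-finger protein that binds RNA and is induced by p53. Its intensity was 304.7 and 306 at bone passages 6 and 3, 548.3 and 399.1 at liver passages 3 and 1, and 335.6 in parental cells. Both bone arrays were just below parental cells and both liver arrays above them, and the sub-lines did not overlap. The log2 difference of bone minus liver was -0.59 ± 0.22 (SE, 2 arrays each), a 1.51-fold lower level in the bone sub-line, with an unadjusted p of 0.0323 and a limma adjusted p of 0.303. It missed the threshold, and 12.5% of all genes tested had a larger difference in either direction. At passage 3, the only passage number both sub-lines share, bone had 306 and liver 548.3. Liver minus parental was 0.46 ± 0.26 (adjusted p = 0.765) and bone minus parental -0.13 ± 0.26 (adjusted p = 0.956).

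Between the bone and liver sub-lines, limma called 0 of the 7 tested members (1 at an unadjusted p under 0.05, Zmat3), against 0.19% of all genes called and 14.1% with an unadjusted p below 0.05. The median log2 difference was -0.08 over the members and -0.02 over all genes tested. One member, Zmat3, was lower on both bone arrays than on both liver arrays, where 25.9% of all genes were, and 0 were higher, where 21.2% of all genes were. Cdkn1a had a bone minus liver log2 difference of -0.08 ± 0.32 (95% interval -0.85 to 0.69). Its sign turned to 0.17 without bone passage 6 and to 0.31 without liver passage 3.

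Trp53inp1 was -0.42 ± 0.37 for bone minus liver and 0.12 without liver passage 3. Ccng1 was -0.08 ± 0.28 and 0.30 without that array. Mdm2 was -0.12 ± 0.19 (fold 0.922, 95% interval 0.673 to 1.26), and Perp was 0.25 ± 0.24. Phlda3 was 0.03 ± 0.21. The limma adjusted p of these members lay between 0.303 (Zmat3) and 0.968 (Phlda3).

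Against parental cells the calls were also 0 of 7 for the bone sub-line (0 at an unadjusted p under 0.05) and 0 of 7 for the liver sub-line (0 at an unadjusted p under 0.05). Over all genes, 0.135% were called for bone and 0.0159% for liver, and 8.17% and 7.49% had an unadjusted p under 0.05. The median log2 difference of the members was -0.03 for bone minus parental and 0.15 for liver minus parental, against -0.02 and 0.01 over all genes. Both bone arrays were above parental cells for 3 members (Cdkn1a, Ccng1 and Mdm2), as for 33.5% of all genes, and below them for 2 (Trp53inp1 and Zmat3), as for 37.7%. Both liver arrays were above parental cells for 3 (Cdkn1a, Mdm2 and Zmat3), as for 35.2% of all genes, and below them for 2 (Phlda3 and Perp), as for 32.8%. With 7 members, these counts are close to the shares of all genes. Cdkn1a and Mdm2 were the 2 of 7 members above the parental value on all 4 sub-line arrays, which 17.6% of all genes were. For Mdm2 the smallest of these differences was 751.2 against 738.1. In all 4 sub-line arrays 0 members were below parental cells, which 18.1% of all genes were.

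**Figure D2:**
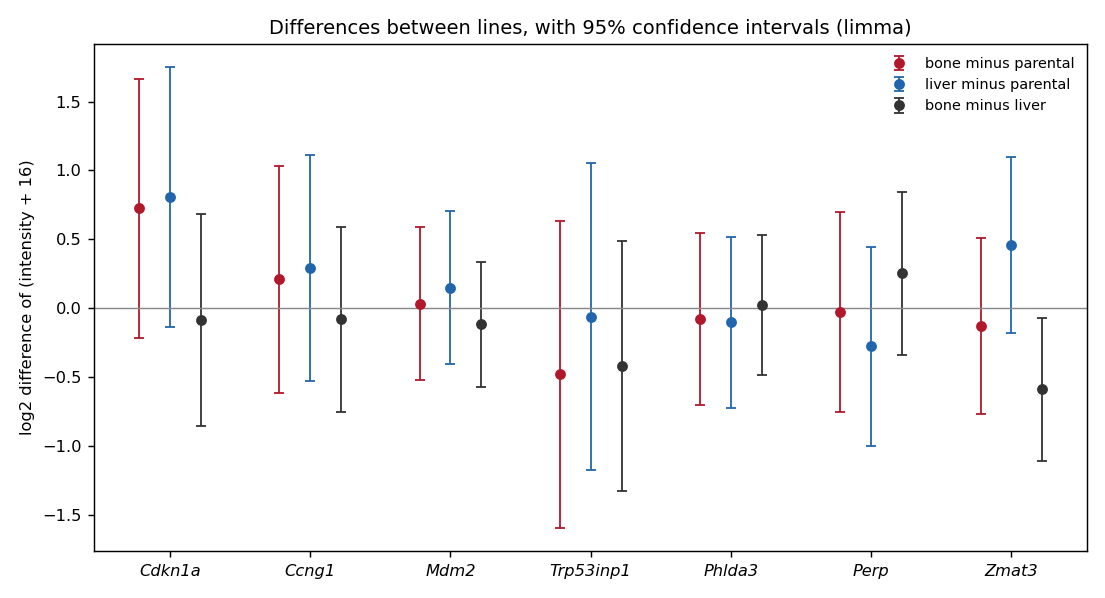
Log2 difference of (intensity + 16) for the 7 tested p53 target genes in each of the 3 comparisons, with points for the limma estimate and bars for its 95% confidence interval. Only the bone minus liver interval of Zmat3 lies wholly on one side of 0, before adjustment over all genes; the Cdkn1a estimates against parental cells are 0.72 and 0.81.

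The final and early liver passages were set against each other for the whole list. All 7 tested members had a higher value at liver passage 3 than at passage 1, where 52.3% of all genes did, and their median log2 difference was 0.49, against 0.02 over all genes. Each passage is 1 array, so there is no replicate check and no test. Trp53inp1 was 2.11-fold higher at passage 3, the 1 member at least 2-fold apart, where 1.68% of all genes were at least 2-fold higher. Only 1.40% of all genes had a larger increase than Trp53inp1. Its dimmer probe set gave a log2 difference of 0.11 where the brighter one gave 1.08.

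Cdkn1a was 1.73-fold higher at liver passage 3 than at passage 1 and Ccng1 1.69-fold higher, and 3.64% and 3.97% of all genes had a larger increase. The differences of the other members were 1.40-fold for Perp, 1.36-fold for Zmat3, 1.18-fold for Mdm2 and 1.12-fold for Phlda3. The second probe sets of Cdkn1a (0.44) and Mdm2 (0.21) and the other probe sets of Ccng1 (0.58 and 0.69) were positive on the log2 scale as well. The summed macrophage markers were 549.8 and 774.1 on these arrays, and their part in the difference was not tested.

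The bone passages gave no such pattern. At passage 6, 1 of 7 members was higher than at passage 3, where 44.2% of all genes were, and the median log2 difference was -0.01 against -0.04 over all genes. Cdkn1a was -0.50, Trp53inp1 -0.44 and Phlda3 -0.38 for passage 6 minus passage 3. Ccng1 (-0.0013), Mdm2 (-0.012) and Zmat3 (-0.0058) were near 0, and Perp was the one positive member at 0.35. None of the 7 was 2-fold apart, where 0.357% of all genes were higher and 2.07% lower by that much. For 6 of the 7 members the sign was opposite to that in the liver sub-line, which was not tested. The share of all genes with opposite signs is not given here, so the count cannot be called particular to the members.

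**Figure D3:**
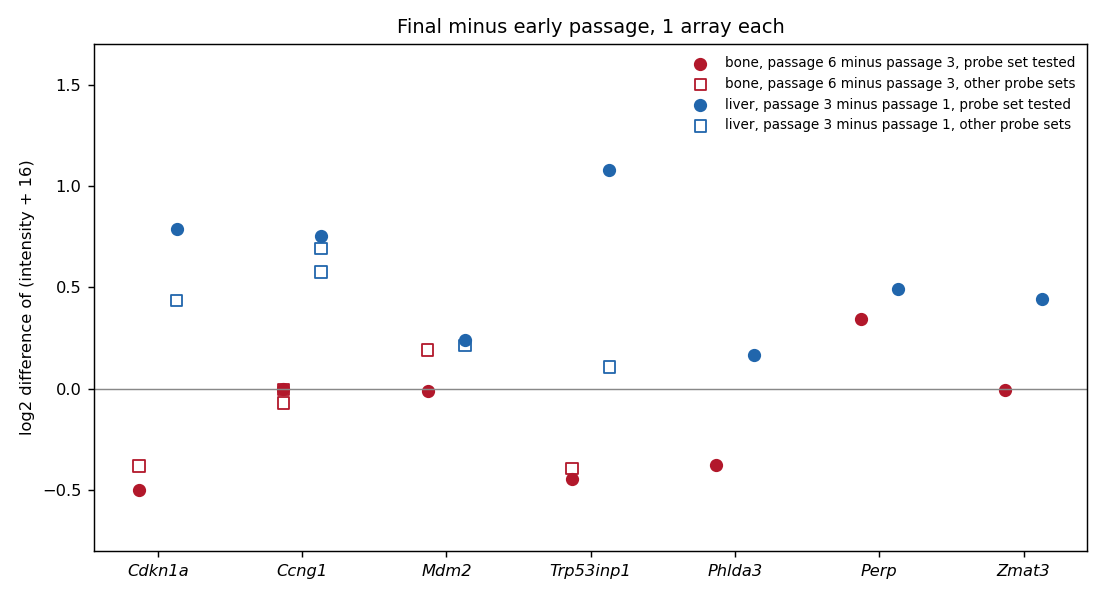
Log2 difference of (intensity + 16) between the final and the early passage of each sub-line, for every probe set above the filter, with filled circles for the probe set tested and open squares for the others. The liver points are all above 0, up to 1.08 for Trp53inp1, whereas the bone points lie between -0.50 and 0.35.

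By the probe set tested, liver passage 3 was the highest of the 5 arrays for 5 of the 7 members, and 19.8% of all genes peaked there. The 5 were Cdkn1a, Ccng1, Mdm2, Trp53inp1 and Zmat3. The dimmer probe sets of Cdkn1a (94.9 against 91.8) and Trp53inp1 (46.4 against 43.7) were higher on bone passage 3 than on liver passage 3. Of the 12 member probe sets above the filter, 8 were highest on liver passage 3, 3 on bone passage 3 and 1 on bone passage 6. Phlda3 was highest on bone passage 3 and Perp on bone passage 6. Set against parental cells, liver passage 3 had 2.30-fold more Cdkn1a, 1.60-fold more Zmat3, 1.59-fold more Ccng1, 1.39-fold more Trp53inp1 and 1.20-fold more Mdm2. Phlda3 and Perp were at 0.984-fold and 0.976-fold. Of these, Cdkn1a alone was 2-fold apart, where 2.19% of all genes were higher and 1.71% lower by that much. At the shared passage number 3, 6 of 7 members were lower in bone than in liver cells, and 49.5% of all genes were higher in bone. Of the members 0 were 2-fold apart there, where 2.24% of all genes were higher and 2.36% lower by that much.

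Cdkn1a had the widest range of the members, 2.30-fold between liver passage 3 and parental cells, and 10.3% of all genes had a wider one. Trp53inp1 followed with 2.27-fold, then Zmat3 with 1.76-fold, Ccng1 with 1.69-fold, Perp with 1.59-fold, Phlda3 with 1.30-fold and Mdm2 with 1.20-fold. Over the 5 arrays, the genes whose centred log2 profile lay nearest to that of Cdkn1a were Hoxa9 (root mean square distance 0.066), Ctns (0.10) and 3300002P13Rik (0.10). Ctns had 152.4 and 217.6 at bone passages 6 and 3, 216.4 and 136.5 at liver passages 3 and 1, and 89.2 in parental cells. Hoxa9 was dim, at 36.6 and 55.9, 62.8 and 34.3, and 18.1 on the same arrays. Among pairs of members the nearest were Mdm2 and Phlda3 (0.15), both of which varied little, and Ccng1 was nearer to Cdkn1a (0.26) than any other member was.

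The regulators of p53 were measured as a list of 16 genes, of which 12 were tested. Over the 3 comparisons limma called 0 of them in either direction. Trp53 itself was not analysed here. At an unadjusted p under 0.05, 2 were lower in bone than in liver, where 14.1% of all genes differed, and 1 was higher and 1 lower in bone than in parental cells, where 8.17% did. Mdm4, the relative of Mdm2 that blocks p53 activity, had 112 and 141.5 at bone passages 6 and 3, 115.1 and 186.8 at liver passages 3 and 1, and 180.5 in parental cells. Both final passages were thus lower than the early ones. Ppm1d, a phosphatase that p53 induces and that switches p53 signalling off, had 157.9 and 155.3 in bone, 130.5 and 109.3 in liver, and 123.2 in parental cells, so that the bone arrays were the 2 highest. Cdkn2a, which encodes the Mdm2 inhibitor Arf, was below the filter on all arrays, with 16.9 at most.

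Other known p53 targets were taken from lists by role. Of 20 tested targets of arrest and repair, limma called 0 in either direction in each comparison. The unadjusted p was under 0.05 for 3 in bone minus liver (3 lower), 3 in bone minus parental (1 higher, 2 lower) and 1 in liver minus parental (1 higher), where 14.1%, 8.17% and 7.49% of all genes were. Their median log2 difference was -0.18 for bone minus liver against -0.02 over all genes. At liver passage 3, 12 of the 20 were higher than at passage 1, where 52.3% of all genes were. The 2 at least 2-fold apart, chosen after their values were seen, went opposite ways. Ckap2, a spindle protein gene, was higher (694.5 against 298.1), and Gadd45a, a growth-arrest gene that other stress pathways also induce, was lower (344.3 against 1143).

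Of 14 tested targets of cell death, limma called 0 in either direction in each comparison. The unadjusted p was under 0.05 for 0 in bone minus liver, 2 in bone minus parental (1 higher, 1 lower) and 5 in liver minus parental (4 higher, 1 lower), where 14.1%, 8.17% and 7.49% of all genes were. Steap3, a metalloreductase of iron uptake that is also a p53 target, was named because every sub-line array was at least 2-fold above the parental one. It had 74.6 and 129.7 at bone passages 6 and 3, 123.4 and 75.5 at liver passages 3 and 1, and 7.0 in parental cells. The 4 sub-line arrays were all well above the parental one, which was itself below the filter. Because of that no fold is given. The limma adjusted p was 0.127 for bone minus parental and 0.194 for liver minus parental, so Steap3 passed in neither. Steap3 was picked by these same values and passed the filter only through the sub-line arrays, so the p-values add no support. Both contrasts use the same parental array. Like Cdkn1a, it was higher at bone passage 3 than at 6 and at liver passage 3 than at 1.

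Of 15 tested targets of metabolism and secretion, limma called 0 in either direction in each comparison. The unadjusted p was under 0.05 for 3 in bone minus liver (1 higher, 2 lower), 2 in bone minus parental (2 lower) and 3 in liver minus parental (1 higher, 2 lower), beside the same 14.1%, 8.17% and 7.49% of all genes. At liver passage 3, 10 of the 15 were higher than at passage 1 (52.3% of all genes), with a median log2 difference of 0.26. At bone passage 6, 3 of the 15 were higher than at passage 3 (44.2% of all genes), with a median of -0.28.

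Cell cycle genes that p21 represses through the DREAM complex were followed beside Cdkn1a. Of 15 tested, limma called 0 in each comparison, and 0 had an unadjusted p under 0.05. Over all genes, 0.19% were called in bone minus liver, 0.135% in bone minus parental and 0.0159% in liver minus parental. In the same order, 14.1%, 8.17% and 7.49% of all genes had an unadjusted p under 0.05. The mean was lower than in parental cells for 14 of 15 in the bone sub-line (median log2 difference -0.19). In the liver sub-line it was lower for 14 of 15 (-0.36), and the medians over all genes were -0.02 and 0.01. The share of all genes with a lower mean is not given here. Both use the same parental array. On single arrays, 0 of 15 were above the parental value at bone passage 3 (50.5% of all genes). At bone passage 6, 10 of 15 were above it (45% of all genes), with a median log2 difference of 0.058. In the liver sub-line 1 of 15 was above it at passage 1 (50.7% of all genes) and 1 at passage 3 (51.5%). The median log2 difference from parental cells was -0.61 at liver passage 1 and -0.08 at liver passage 3. Between passages, 15 of 15 cell cycle genes were higher at the final one in the bone sub-line (median log2 difference 0.54, 44.2% of all genes). In the liver sub-line 14 of 15 were (0.54, 52.3% of all genes). Cdk1, the mitotic kinase and a gene chosen after its values were seen, had 2290.8 and 1572.3 at bone passages 6 and 3, 2101 and 1289.3 at liver passages 3 and 1, and 2158.3 in parental cells. Both early passages were the low ones. Cdkn1a was lower at bone passage 6 than at passage 3, and higher at liver passage 3 than at passage 1. Each passage is 1 array, and a link between Cdkn1a and the cell cycle genes was not tested.

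Stress-response genes that share targets with p53 were also followed, in 12 genes tested. Of these, limma called 0 in each comparison. At an unadjusted p under 0.05 there were 0 in bone minus liver, 1 in bone minus parental and 0 in liver minus parental. Over all genes, 14.1%, 8.17% and 7.49% were under it, and limma called 0.19%, 0.135% and 0.0159%. All 12 were lower at liver passage 3 than at passage 1, with a median log2 difference of -0.89 (0.02 over all genes). Of these, 6 were at least 2-fold lower, where 1.13% of all genes were. In the bone sub-line 9 of 12 were lower at passage 6 than at passage 3, with a median of -0.41 (-0.04 over all genes), and 1 of them, Trib3, was at least 2-fold lower, where 2.07% of all genes were. Trib3, a pseudokinase induced by amino acid shortage and unfolded proteins, was chosen after its values were seen. It had 384.9 and 877.1 at bone passages 6 and 3, 403.1 and 1923.4 at liver passages 3 and 1, and 1109.5 in parental cells. Liver passage 3 was the highest array for 0 of the 12 stress genes, where 19.8% of all genes were highest. Liver passage 1 was the highest for 7 of the 12, where 24.7% of all genes were. A link to the p53 target genes was not tested.

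**Figure D4:**
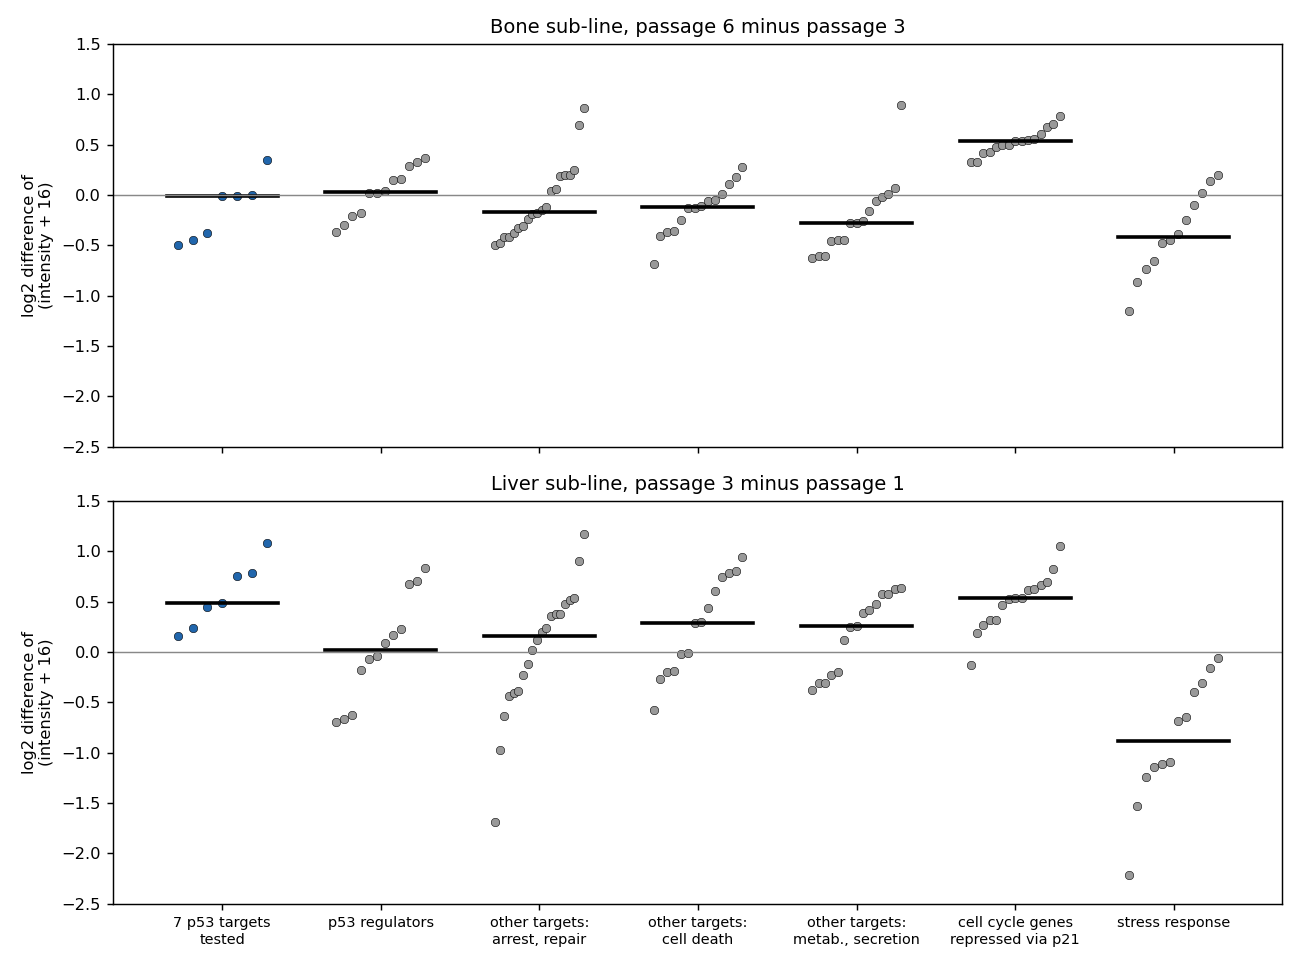
Log2 difference of (intensity + 16) between final and early passage for the 7 tested p53 target genes and for each related list, with 1 point per gene and a bar at the list's median. In the liver sub-line the p53 targets and the cell cycle genes have medians of 0.49 and 0.54 and the stress-response genes -0.89, and in the bone sub-line the p53 targets centre near 0.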

How the data were processed

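RNA of 5 samples (2 bone and 2 liver sub-line passages and 1 parental) was measured on 1-colour Affymetrix arrays. The deposited value of a probe set is a linear intensity, as its range shows. The submitters' processing notes name RMA, with no version, yet the values are not on a log2 scale. Any further steps are not given in the sources used here. Per the platform table, 34945 probe sets had 1 gene, 932 had several and 9211 were unlisted.

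Intensities were converted to log2(intensity + 16), which understates changes of dim genes. Probe sets whose highest value reached the median of all values, 25.1, were kept, and the one with the highest mean log2 value stood for its gene. limma 3.58.1 in R 4.3.3 was fitted to 12609 genes over all 5 arrays, with lines as groups, 2 residual degrees of freedom, a prior of 4.20 and Benjamini-Hochberg adjustment. Genes were called at an adjusted p under 0.05. Their p-values reflect the spread between passages of 1 lineage, which may be technical, and a group with 1 array (parental) borrows the spread of the others. The number of arrays limits the precision. The fit was tested on simulated data.

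The members and lists were chosen with earlier results of these data known. The naming rule took all members, Trp53, Mdm4, Cdkn2a and Ppm1d, list genes called or 2-fold apart between every array of both groups, and the 3 profiles nearest Cdkn1a. The alternatives changed the pseudocount, filter, normalization, probe-set summary, prior, stage block and arrays included.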

Additional observations from a re-analysis of the deposited data

Results flagged for a closer look

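Zmat3 was below parental cells on both bone arrays and above them on both liver arrays, and its bone minus liver log2 difference was -0.59 (limma adjusted p = 0.303). It was the only tested member to do so. The share of all genes that did so is not given here, so the pattern cannot be called particular to Zmat3.

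For 6 members, the change from early to final passage had opposite signs in the sub-lines. The share of all genes for which it did is not given here. The bone change minus the liver change, on the log2 scale, was -1.53 for Trp53inp1, -1.29 for Cdkn1a, -0.76 for Ccng1, -0.54 for Phlda3, -0.45 for Zmat3 and -0.25 for Mdm2. Each rests on 1 array per passage, and the difference was not tested. For Ccng1, Mdm2 and Zmat3 the bone change itself was near 0 (-0.0013, -0.012 and -0.0058).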

How the results depend on the processing

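The count of members called was 0 in every comparison under every alternative run, and 267 of the 280 recomputed log2 differences of single members kept their sign and stayed uncalled. The other 13 changed sign. With all arrays kept, these were bone minus liver for Phlda3 with quantile normalization (-0.053) and bone minus parental for Perp with median centring (0.042). The remainder came from leaving out an array. For bone minus liver the values then ran from -0.46 to 0.30 for Ccng1, from -0.48 to 0.31 for Cdkn1a, from -0.24 to 0.0027 for Mdm2 and from -0.96 to 0.12 for Trp53inp1, each highest without liver passage 3, and Cdkn1a was also positive (0.17) without bone passage 6. For Phlda3 they ran from -0.16 (without bone passage 3) to 0.21, with -0.057 without liver passage 1. Bone minus parental ran from -0.20 to 0.14 for Perp and from -0.27 to 0.11 for Phlda3, the higher value without bone passage 3 for Perp and without bone passage 6 for Phlda3. Liver minus parental ran from -0.089 (without liver passage 3) to 0.67 for Ccng1 and from -0.60 to 0.48 (without liver passage 1) for Trp53inp1. The cause was not tested beyond the arrays left out.

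The labels give no replicate numbers that pair arrays. With stage (early, final) as a replicate block over the 4 sub-line arrays, 0 members were called between bone and liver, among 161 genes in all against 24 without it. At a 1.5-fold threshold, 3 members were apart between the liver passages in place of 1, and 2 between bone and liver at passage 3 in place of 0. With probe sets averaged, 0 were 2-fold apart between the liver passages. Chosen after seeing the data, quantile normalization, median centring and averaged probe sets each left 5 members highest on liver passage 3 and 7 higher there than at passage 1.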
